A study of Homo sapiens with 4 samples.

Results

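The proteasome and immunoproteasome subunits were taken as every gene on the array whose name is PSM followed by a letter from A to G and a number. The rule found 48 of the 27193 gene names on the array, measured by 64 of its 34127 probes. Of these 48 genes, 5 were read as the immunoproteasome set (PSMB8, PSMB9, PSMB10, PSME1 and PSME2) and 43 as the other proteasome genes. The rule uses names and no measured value, though the set was picked with earlier results of these data known. All 48 names are current RefSeq symbols, and 63 of the 64 probes matched a RefSeq transcript by accession, each with the same symbol.

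THP1 is a human monoblastic acute myeloid leukemia cell line that carries the fusion gene MLL-AF9, and every culture here was of this 1 line. The cells received either a miR-511-5p mimic, a synthetic RNA that acts as the mature miRNA, or negative control #1, a mimic RNA of the same kind used as control, both at 30 nM. RNA was taken on day 2. Each treatment was measured once in each of 2 independent experiments, so that 4 single-dye Agilent whole genome arrays give 2 arrays per treatment and 2 arrays per experiment. All cells were transfected and none was left untreated. The array does not measure mature miRNAs, so uptake of the mimic was not checked here.

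The proteasome degrades proteins tagged with ubiquitin. Its barrel-shaped 20S core is built of outer rings of alpha subunits (PSMA genes) and inner rings of beta subunits (PSMB genes), of which PSMB5, PSMB6 and PSMB7 encode the ones that cut. The 19S cap, made of ATPases (PSMC genes) and non-ATPase subunits (PSMD genes), recognizes and unfolds the substrate. Interferon gamma induces PSMB8, PSMB9 and PSMB10, which take the places of PSMB5, PSMB6 and PSMB7 in newly built cores, and PSME1 and PSME2, which form the activator PA28. The resulting immunoproteasome produces many of the peptides that MHC class I molecules present, and monocytes and other blood cells express it without stimulation.

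The agent and the probes that carry the main comparison are shown first. The mature miR-511-5p, from RefSeq on GRCh38.p14 at chr10:17845122-17845142 on the plus strand, has its seed (bases 2 to 8) in capitals.
miR-511-5p: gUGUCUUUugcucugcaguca
The DNA letters that pair with this seed, AAAGACA, occur in 0 of the 64 proteasome probes and in 331 of all 34127 probes (0.970%), which describes the 60 bases of each probe and not the rest of a transcript.

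An array signal for PSMB8 is separate from one for PSMB5 only if the probes differ, since these genes encode related proteins. The 60-base probes of the 3 constitutive catalytic subunits, of 2 of their immunoproteasome counterparts and of PSME1 are given 5′ to 3′ in the sense of the transcript. All 6 lie in exons, and a reading frame without a stop codon runs through each.
PSMB5: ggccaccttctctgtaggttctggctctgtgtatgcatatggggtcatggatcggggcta
PSMB8: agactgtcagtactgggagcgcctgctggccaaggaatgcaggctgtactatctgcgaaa
PSMB6: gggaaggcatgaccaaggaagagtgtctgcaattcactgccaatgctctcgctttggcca
PSMB9: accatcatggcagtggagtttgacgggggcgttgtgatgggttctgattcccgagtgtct
PSMB7: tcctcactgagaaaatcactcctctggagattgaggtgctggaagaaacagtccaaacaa
PSME1: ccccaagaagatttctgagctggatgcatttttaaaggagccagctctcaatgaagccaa
On hg19 the PSMB5 probe lies at chr14:23495485-23495544 (minus strand) and the PSMB7 probe at chr9:127115891-127115950 (minus strand). The PSMB9 probe lies at chr6:32823918-32823977 (plus strand), in the MHC region that also holds TAP1, TAP2 and PSMB8. The other 3 probes span an intron. They reach over chr6:32810023-32810490 for PSMB8 (minus strand), chr17:4701404-4701589 for PSMB6 (plus strand) and chr14:24606378-24606552 for PSME1 (plus strand). The longest run of bases shared within a pair was 5 for PSMB5 and PSMB8, 8 for PSMB6 and PSMB9, and 7 for PSMB7 and PSMB10.

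Signal is given as quantile normalized log2 intensity, and log2FC is the difference of 2 such values. Since a probe's brightness depends on its own sequence, levels are compared only between arrays for the same probe. Between 22130 and 23647 probes per array were well above background. The lower end was the array of miR-511 mimic in experiment 1. Of the 64 proteasome probes, 59 were tested, and all 59 were well above background on all 4 arrays, with mean signals from 6.52 to 16.90. These 59 probes cover 46 genes. PSMA8, an alpha subunit known from testis, and PSMB11, the catalytic subunit of the thymus, had no probe above background, and 2 of the 3 PSMG4 probes were not tested, 1 of them above background on no array and the other on 1. Of 9 markers of monocytic cells on the array, 9 were well above background on all 4 arrays. Of 12 markers of other cells, 7 were not above background (MS4A1, NCAM1, PPBP, EPCAM, KRT19, COL1A1 and ALB), and PECAM1, CD3D and CD3E were among those with signal.

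The first comparison was miR-511 mimic against control mimic. It asked which transcripts respond to the miRNA. No proteasome probe passed limma's unadjusted threshold of 0.05. Over all 22638 tested probes 1.27% passed as higher and 0.932% as lower, and after Benjamini-Hochberg adjustment 0% passed, the smallest adjusted p of a proteasome probe being 1.00 (limma). The largest absolute log2FC among the 59 probes was 0.27, at PSMB8. Of the 46 genes, read by the brightest probe of each, 38 had a log2FC within 0.1 of 0. The standard error of a gene's log2FC ranged from 0.088 to 0.260 with a median of 0.099. The 95% interval lay within 1 log2 unit of 0 in 46 of 46 genes and within 0.5 in 40 of them. This fit had no term for the experiment, so differences between experiments enter these standard errors and intervals. With 2 arrays per treatment an exact permutation test cannot give a two-sided p under 0.333. Run as an alternative, a plain equal-variance t-test on the averaged value of each probe passed 4 of the 59 probes as higher before adjustment. These were PSMB3, PSMC4, PSMD2 and the second probe of PSMB2, and 0 passed after adjustment. Over all tested probes this t-test passed 3.13% in either direction before adjustment. It is not the paper's rule, which joins the moderated t-test with a t-test over identical replicate probes.

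The direction was not even across the proteasome genes. Of the 59 probes, 40 (67.8%) were higher with miR-511 mimic, against 53.7% of all tested probes. Both miR-511 arrays lay above both control arrays at 17 probes (28.8%, against 15.6% of all tested probes) and below both at 1 probe (1.69%, against 10.1%). The median log2FC was 0.032 over the 41 other proteasome genes tested and 0.077 over the 5 immunoproteasome genes, against 0.0098 over all tested probes, and the difference between the lists was not tested. Of the 46 genes 33 were higher, and 26 were after normexp background correction. Without the control array of experiment 1, the medians were -0.0093 for the other proteasome genes and -0.090 for the immunoproteasome genes, and 20 of 46 genes were higher. That array held the lowest value of 25 of the 59 probes, a larger share than its 25.5% of all tested probes. Each of the other arrays held the lowest value of 7 to 14 of the 59.

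**Figure D1:**
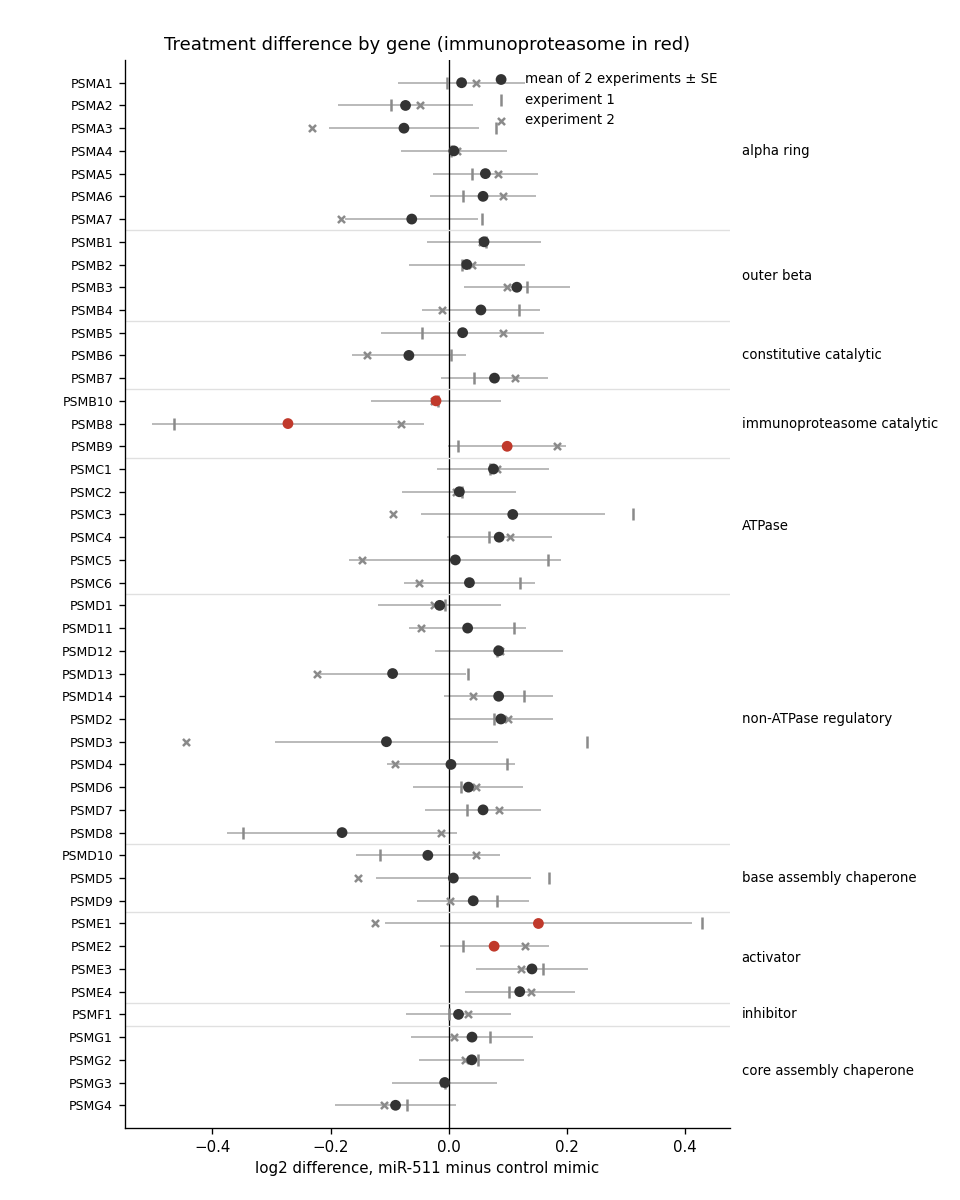
The log2 difference of miR-511 mimic minus control mimic is plotted for the brightest probe of each of the 46 tested genes, ordered by role, as the mean of 2 experiments with its limma standard error, beside the difference within experiment 1 (bar) and experiment 2 (cross). The means lie between -0.27 (PSMB8) and 0.15 (PSME1), both immunoproteasome genes, and the 2 experiments lie far apart for PSMB8, PSMC3, PSME1, PSMD3 and PSMD8, among others.

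The 5 immunoproteasome genes did not move together. PSMB8 (also called LMP7), which takes the place of PSMB5, had a signal of 12.82 with miR-511 mimic and 13.28 with control mimic in experiment 1, and of 13.39 and 13.47 in experiment 2. The value of the miR-511 array of experiment 1 was thus 0.46 below the next, and the treatments overlapped. The log2FC was -0.27 (SE 0.23, 2 arrays per treatment, 95% interval -0.90 to 0.36). Without the miR-511 array of experiment 1 it was 0.017, and without that of experiment 2 it was -0.56, past limma's unadjusted threshold. The lone miR-511 array left in that fit is assumed to vary as the control arrays do. The miR-511 array of experiment 1 was the lowest by at least this gap at 753 of all tested probes (3.33%), against 161 to 288 probes for each of the other arrays, and the part of that array in the PSMB8 value was not tested.

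PSMB9 (LMP2), the counterpart of PSMB6, lay at 13.17 with miR-511 mimic and 13.15 with control mimic in experiment 1, and at 13.29 and 13.11 in experiment 2. Both miR-511 arrays were above both control arrays, by 0.015 and 0.18 within the experiments, and the log2FC was 0.099 (SE 0.099). PSMB10 (MECL-1), the counterpart of PSMB7, lay at 15.95 and 15.96 in experiment 1 and at 16.08 and 16.10 in experiment 2, in the same order of treatments. Its log2FC of -0.022 (SE 0.11) was under the spread between the experiments.

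PSME1 and PSME2 encode the alpha and beta subunits of PA28, which opens the core from its end. PSME1 had a signal of 10.27 with miR-511 mimic and 9.84 with control mimic in experiment 1, and of 10.40 and 10.53 in experiment 2. The difference between treatments was 0.43 in experiment 1 and -0.13 in experiment 2, so that its log2FC of 0.15 (SE 0.26, 95% interval -0.56 to 0.86) had the widest interval of the 46 genes. Without the control array of experiment 2 it was 0.50, past limma's unadjusted threshold, and without that of experiment 1 it was -0.19. In both fits the lone control array is assumed to vary as the miR-511 arrays do. PSME2 lay at 15.70 and 15.68 in experiment 1 and at 15.77 and 15.64 in experiment 2, with both miR-511 arrays on top and a log2FC of 0.077 (SE 0.092).

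The constitutive catalytic subunits differed less between treatments than PSMB8 did, though the difference between those log2FC values was not tested. PSMB5, the chymotrypsin-like subunit, lay at 14.10 with miR-511 mimic and 14.15 with control mimic in experiment 1, and at 13.96 and 13.87 in experiment 2. The order of treatments turned between the experiments, and the log2FC was 0.023 (SE 0.14). PSMB6, the caspase-like subunit, lay at 13.89 and 13.88 in experiment 1 and at 13.86 and 13.998 in experiment 2, with a log2FC of -0.067 (SE 0.097). PSMB7, the trypsin-like subunit, lay at 14.48 and 14.44 in experiment 1 and at 14.53 and 14.42 in experiment 2, with both miR-511 arrays on top and a log2FC of 0.077 (SE 0.090).

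**Figure D2:**
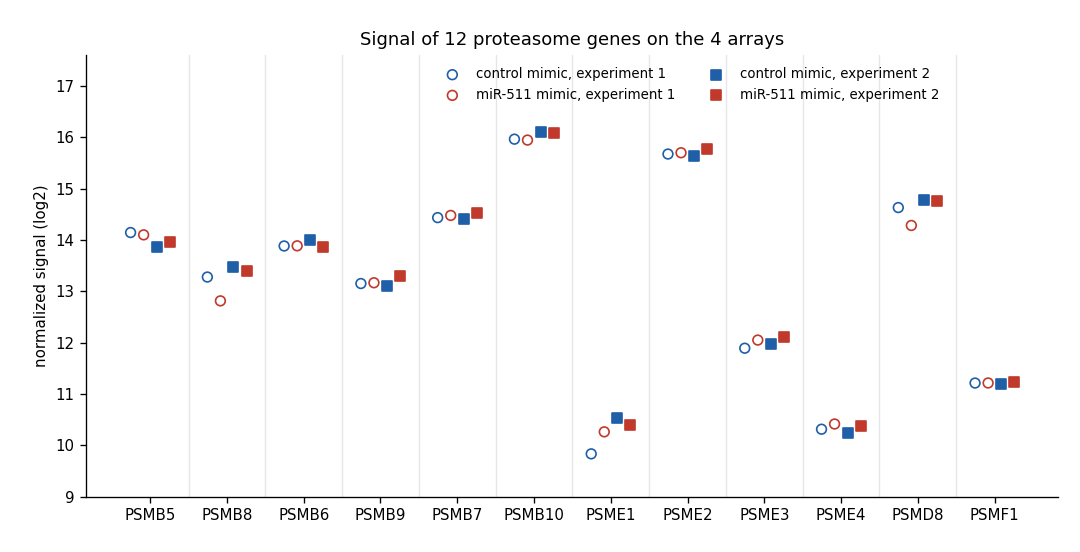
Quantile normalized log2 signal of the brightest probe is plotted for 12 proteasome genes on each of the 4 arrays, by treatment (color) and experiment (open and filled symbols). PSMB8 and PSMD8 have 1 low array, miR-511 mimic in experiment 1, and PSME1 has 1 low array, control mimic in experiment 1, while the 4 values of PSMF1 lie between 11.20 and 11.23.

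The other activators differed by like amounts in both experiments. PSME3, the nuclear PA28 gamma, lay at 12.05 with miR-511 mimic and 11.89 with control mimic in experiment 1, and at 12.10 and 11.98 in experiment 2. Both miR-511 arrays were above both control arrays, with a log2FC of 0.14 (SE 0.095, 95% interval -0.12 to 0.40). After normexp background correction the log2FC of PSME3 was 0.20, the only proteasome value past limma's unadjusted threshold in that setting. PSME4, the activator PA200, lay at 10.42 and 10.32 in experiment 1 and at 10.38 and 10.24 in experiment 2, with a log2FC of 0.12 (SE 0.093). A second, dimmer PSME4 probe gave -0.011 (SE 0.089).

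PSMF1 encodes PI31, which inhibits the core in the test tube. Its brightest probe lay at 11.22 on both arrays of experiment 1, and at 11.23 with miR-511 mimic and 11.20 with control mimic in experiment 2, a log2FC of 0.016 (SE 0.088). Of its 4 probes, the dimmest lay at 6.41 and 6.74 in experiment 1 and at 6.67 and 6.79 in experiment 2. It was the only one of the 59 proteasome probes with both miR-511 arrays below both control arrays, with a log2FC of -0.22 (SE 0.13).

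The ring and cap genes were described by role. All 6 ATPase genes of the cap had a log2FC above 0, from 0.011 to 0.11 (median 0.055), but within experiment 2 only 3 of the 6 did. The 4 outer beta genes PSMB1 to PSMB4, which complete the inner rings without cutting, ranged from 0.030 to 0.12 (median 0.057), and PSMB3 was the highest of them with 0.13 in experiment 1 and 0.098 in experiment 2. Of the 7 alpha ring genes 4 were above 0, with a median of 0.0086. Of the 11 non-ATPase genes of the cap 7 were above 0, with a median of 0.032 and a range from -0.18 to 0.088.

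The lowest values of the cap came from PSMD8 and PSMD3. PSMD8, a lid subunit, lay at 14.28 with miR-511 mimic and 14.63 with control mimic in experiment 1, and at 14.76 and 14.78 in experiment 2, a log2FC of -0.18 (SE 0.20). As for PSMB8, the low value was that of the miR-511 array in experiment 1, and without it the log2FC was 0.060. PSMD3, a lid subunit as well, lay at 12.26 and 12.03 in experiment 1 and at 11.92 and 12.36 in experiment 2. Its treatment difference was 0.23 in experiment 1 and -0.44 in experiment 2 (log2FC -0.11, SE 0.19), so that the order of treatments turned.

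The array prints PSMD6 and PSMD7, also lid subunits, 10 times each, which shows the error of a single spot. The SD of log2 signal over the 10 copies of PSMD6 ranged from 0.027 to 0.11 per array and that of PSMD7 from 0.060 to 0.099. The mean of the 10 copies of PSMD6 was 13.004 with miR-511 mimic and 12.98 with control mimic in experiment 1, and 13.08 and 13.03 in experiment 2. That of PSMD7 was 13.74 and 13.71 in experiment 1, and 13.85 and 13.76 in experiment 2. The resulting log2FC values of 0.033 (SE 0.093) and 0.058 (SE 0.098) had the sign of their lists, and each was smaller than its standard error.

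Assembly factors build the core and the base of the cap and then leave. Among the core chaperones, PSMG1 lay at 14.51 with miR-511 mimic and 14.44 with control mimic in experiment 1, and at 14.58 and 14.58 in experiment 2 (log2FC 0.039, SE 0.10). PSMG2, its partner, lay at 11.73 and 11.68 in experiment 1 and at 11.69 and 11.66 in experiment 2, with both miR-511 arrays on top and a log2FC of 0.039 (SE 0.089) that turned to -0.041 after normexp correction. PSMG3 lay at 12.79 and 12.80 in experiment 1 and at 12.82 and 12.82 in experiment 2 (log2FC -0.0068, SE 0.089). PSMG4, its partner, lay at 11.34 and 11.42 in experiment 1 and at 11.43 and 11.54 in experiment 2 (log2FC -0.090, SE 0.10). The base chaperones PSMD5, PSMD9 and PSMD10 ranged from -0.035 to 0.041. No assembly factor passed the test.

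The same-signed share of the treatment difference in both experiments was 64.4% of the proteasome probes (38 of 59) and 51.0% of all tested probes. Probes of 1 gene and genes of 1 complex are not independent, and no test was built on these shares. Within experiment 1 the median difference was 0.057 for the other proteasome genes and 0.015 for the immunoproteasome genes, and within experiment 2 it was 0.013 and -0.026. The median of the immunoproteasome genes thus had another sign in experiment 2 than their median log2FC over both experiments, 0.077, because different genes held the middle place.

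The second comparison was experiment 2 against experiment 1, each with 1 array of both treatments. It shows how much the proteasome genes differed between the 2 experiments, in which the parts of culture and of array handling cannot be told apart. Of the 59 probes 3 passed the unadjusted threshold, all as higher in experiment 2 (5.08%). Over all 22638 tested probes 5.42% passed as higher and 8.15% as lower. The share of higher calls among the proteasome probes was thus near that background. The background was dimmer, with 16.8% of its probes above a mean signal of 12, against 42 of the 59 proteasome probes. Its share of higher calls was 7.96% under a signal of 6 and 1.63% at 14 and over. After adjustment 0% of the tested probes passed (smallest adjusted p (limma) of a proteasome probe 0.26). The 3 probes were dim second probes of PSMD9, PSMA1 and PSMD10, and without the control array of experiment 2 none of the 59 probes passed.

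The direction was uneven here as well. Of the 59 probes, 44 (74.6%) were higher in experiment 2, against 47.6% of all tested probes. Both arrays of experiment 2 lay above both of experiment 1 at 27 probes (45.8%, against 22.4% of all tested probes) and below both at 4 probes (6.78%, against 26.4%). By gene, 35 of 46 were higher, with 40 after 75th percentile scaling and 34 after normexp correction. The median log2FC was 0.060 over the other proteasome genes and -0.0093 over all tested probes.

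All 5 immunoproteasome genes were higher in experiment 2, with a median log2FC of 0.13. The median was 0.14 between the control arrays and 0.13 between the miR-511 arrays, which are 2 separate pairs of arrays. PSMB10 held the middle place in both pairs, so these medians are the values of 1 gene. PSMB8 had 0.19 between the control arrays and 0.58 between the miR-511 arrays, and PSME1 had 0.69 and 0.14. Between the control arrays, though, PSMB9 (-0.043) and PSME2 (-0.034) were lower in experiment 2, and without the miR-511 array of experiment 2 only 3 of the 5 genes were higher. The lists were not tested against each other, and no gene of the 5 passed the test. PSME1 had the largest value, 0.41 (SE 0.17, 95% interval -0.066 to 0.89, limma adjusted p = 0.41), followed by PSMB8 with 0.39 (SE 0.18, 95% interval -0.12 to 0.89, limma adjusted p = 0.44). In both genes 1 array of experiment 1 was far below the others, that of control mimic for PSME1 and that of miR-511 mimic for PSMB8. Without that array the log2FC was 0.20 for PSME1 and 0.15 for PSMB8, and without the other array of experiment 1 it was 0.63 and 0.62, both past limma's unadjusted threshold with 1 array left in experiment 1. PSMB10 had 0.13 (SE 0.066, limma adjusted p = 0.47) with both arrays of experiment 2 on top, PSMB9 had 0.041 (SE 0.093) and PSME2 had 0.018 (SE 0.080), each with overlap.

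**Figure D3:**
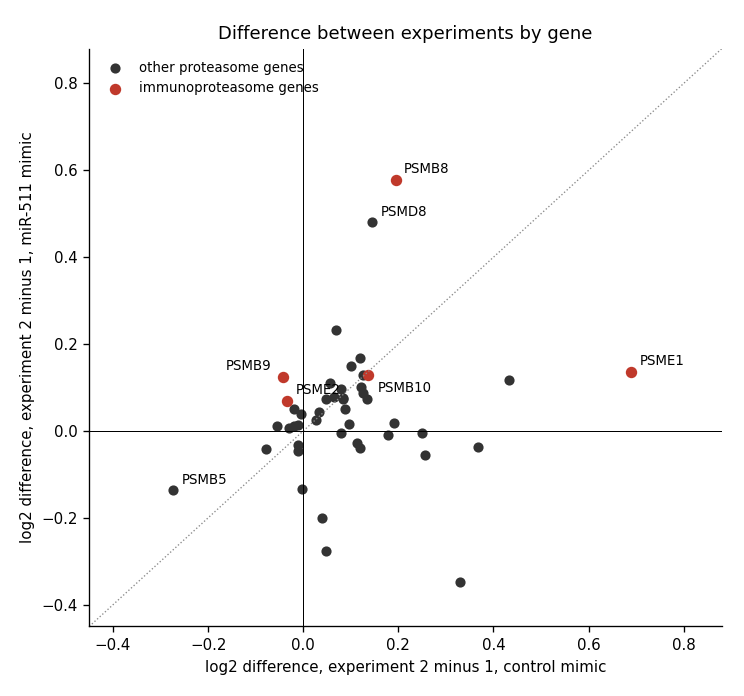
The log2 difference of experiment 2 minus experiment 1 is plotted for the 46 tested genes, between the control arrays (x axis) and between the miR-511 arrays (y axis), with the line of equal values dotted. PSMB10 lies close to that line, and PSMB8 and PSMD8 lie high above it. PSMD3, PSME1 and PSMC3, among others, lie far below it, PSMD3 the farthest, while PSMB5 is lower in experiment 2 on both axes.

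PSMB5 differed the other way. Its signals of 14.10 and 14.15 in experiment 1 were both above those of 13.96 and 13.87 in experiment 2, a log2FC of -0.21 (SE 0.075, 95% interval -0.41 to 0.0039, limma adjusted p = 0.38). It was the lowest of the 46 genes. Its value stayed on the same side of 0 when any 1 array was left out, from -0.25 to -0.16, and passed the unadjusted threshold with an intensity trend in limma and with the stricter filter on dim probes. After normexp correction it was -0.028, far closer to 0. PSMB6 and PSMB7 had 0.043 (SE 0.082) and 0.015 (SE 0.078), both of which turned negative after normexp correction. PSMB5 and PSMB8, the gene that replaces it, thus had opposite signs between experiments, and this contrast of the pair, whose PSMB5 value was near 0 after normexp, was not tested.

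Among the remaining genes, PSMD8 was the highest with 0.31 (SE 0.14, limma adjusted p = 0.43), which was 0.14 without the miR-511 array of experiment 1 and 0.49, past limma's unadjusted threshold, without the control array of experiment 1. PSMC5, an ATPase, followed with 0.28 (SE 0.10, limma adjusted p = 0.38). The lowest after PSMB5 were PSMD5 with -0.11 (SE 0.10), which turned to 0.082 after normexp correction, and PSMA7, an alpha subunit, with -0.080 (SE 0.094). PSMA7 lay at 15.30 with miR-511 mimic and 15.24 with control mimic in experiment 1, and at 15.10 and 15.28 in experiment 2, so that 1 array of experiment 2 was low. PSMD5 lay at 9.34 and 9.17 in experiment 1 and at 9.07 and 9.22 in experiment 2, with overlap.

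Where several probes read 1 gene, they could be set against each other. The dim PSMD9 probe lay at 6.38 with miR-511 mimic and 6.28 with control mimic in experiment 1, and at 6.67 and 6.75 in experiment 2, a log2FC between experiments of 0.38 (SE 0.081, limma adjusted p = 0.26). The bright PSMD9 probe gave 0.056 (SE 0.072). Its signals lay between 12.92 and 13.02, so both probes had the order of the experiments but not the size.

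The dim PSMA1 probe lay at 8.90 and 8.89 in experiment 1 and at 9.16 and 9.22 in experiment 2 (log2FC 0.29, SE 0.069, limma adjusted p = 0.28), and the bright one at 13.98 and 13.98, and at 14.13 and 14.08 (0.12, SE 0.068, limma adjusted p = 0.49). The dim PSMD10 probe lay at 8.50 and 8.60 in experiment 1 and at 8.77 and 8.87 in experiment 2 (0.27, SE 0.083, limma adjusted p = 0.34), and the bright one at 10.67 and 10.79, and at 10.90 and 10.86 (0.15, SE 0.079, limma adjusted p = 0.48). PSMA1 is an alpha ring gene and PSMD9 and PSMD10 encode chaperones of the base. In all 3 genes both probes had both arrays of experiment 2 on top.

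Over the 11 genes with more than 1 tested probe, the probes of 9 had the same sign between experiments and those of 6 between treatments. The dimmest probe was above the brightest in 8 of 11 genes for the difference between experiments, with medians of 0.15 and 0.071. Over all tested probes, the median absolute difference between experiments was 0.20 at mean signals under 6 and 0.078 at 14 and over, so dim probes varied more. For the treatment comparison the probes of a gene differed by a median of 0.065 and by at most 0.24, at PSMF1. PSMD2 was another such gene, with 0.088 at its bright probe and -0.13 at its dim one.

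**Figure D4:**
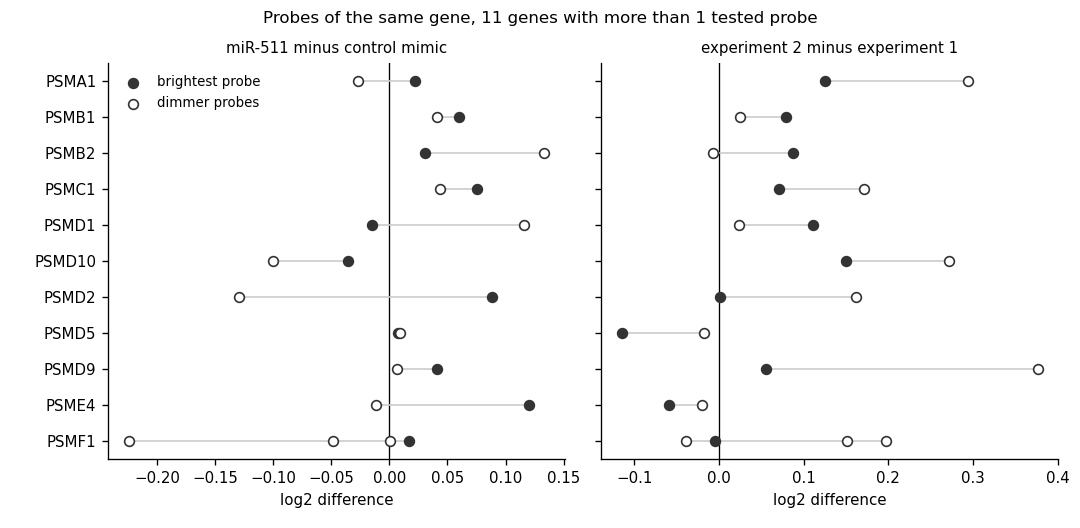
The log2 difference of each tested probe is plotted for the 11 genes with more than 1, for miR-511 minus control mimic (left) and experiment 2 minus experiment 1 (right), with the brightest probe filled. The right panel shows the dim probes of PSMA1, PSMD9 and PSMD10 at 0.27 to 0.38, to the right of the bright ones. In the left panel the probes of PSMA1, PSMD1, PSMD2, PSME4 and PSMF1 lie on both sides of 0.

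Genes that work with the proteasome were described from 2 lists of genes outside the rule. Of 24 proteasome partners on the array (shuttle factors, deubiquitinases, ubiquitin genes and regulators) 23 were tested, and none passed between treatments or between experiments at its brightest probe. Their median log2FC was 0.0022 between treatments, with 12 of 23 above 0, and -0.010 between experiments, with 9 of 23 above 0. POMP, the chaperone that matures the core, lay at 8.08 with miR-511 mimic and 9.36 with control mimic in experiment 1, and at 9.71 and 9.48 in experiment 2. Its log2FC of -0.53 between treatments (SE 0.58) came with a low value on the same miR-511 array of experiment 1 that was low for PSMB8 and PSMD8. NFE2L1, a transcription factor that drives proteasome genes, had -0.049 (SE 0.11) between treatments and -0.12 (SE 0.070, limma adjusted p = 0.51) between experiments.

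All 14 class I antigen processing genes, which interferon gamma induces along with the immunoproteasome, were tested. Between treatments none passed at its brightest probe, 7 of 14 were above 0, and the median log2FC was -0.00034. TAP1, a subunit of the peptide transporter and the neighbor of PSMB9, had 0.18 (SE 0.12). Between experiments the median was -0.026. At the brightest probe of each gene only NLRC5, an activator of MHC class I genes, passed the unadjusted threshold. Its log2FC was 0.38 (SE 0.078, limma adjusted p = 0.26), and its second probe gave 0.13 (SE 0.11). A dimmer probe of TAP2 (0.39, SE 0.085) and one of TAPBP (-0.26, SE 0.077) passed as well. Over all tested probes 5.42% passed as higher and 8.15% as lower. IRF1, a transcription factor of the interferon response, had 0.022 (SE 0.080). Of these 14 genes 6 were higher in experiment 2. Of the 9 monocytic markers, 5 passed as lower in experiment 2 at the brightest probe (CD68, CSF1R, FCER1G, PTPRC and TYROBP), with a median of -0.21 over the list. The dimmer probes of PTPRC, from -0.21 to -0.030, did not pass, and MPO was higher, with 0.12. The part of the shift of these markers in the proteasome values was not tested.

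Promoters were searched for features that the rule did not use. RefSeq promoters were given for 42 of the 48 genes, and PSMA7, PSMB1, PSMB6, PSMB7, PSMD4 and PSMG3 had no entry. The 250 bases before each start were read on both strands and set beside those of all 27305 genes with a promoter. The core of the antioxidant response element, TGACNNNGC, which NFE2L1 and NFE2L2 bind, was found for 13 of 42 proteasome genes (31.0%) and 13.2% of all genes. The core of an interferon response element, searched as GAAA, then 2 bases of any kind, then GAAA, was found for 5 of 42 (11.9%) and 3.71% of all genes, and TTCNNNGAA, the form of a gamma-activated site, for 7 of 42 (16.7%) and 8.09%. CCAAT was found for 19 of 42 (45.2%) and 37.0%.

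Of the 5 immunoproteasome genes, PSMB10 and PSME2 carried the interferon element core, both as the same letters close to the start. PSMG4, a core assembly factor outside this set, carried the same letters, also close to its start. PSMA4 and PSMB4, outside the set as well, carried the core with other letters. PSMB10 and PSME2 are shown with the matched letters in capitals, as the 60 bases before the start on GRCh38.p14. They lie at chr16:67936851-67936910 for PSMB10 and chr14:24146611-24146670 for PSME2, both on the minus strand.
PSMB10: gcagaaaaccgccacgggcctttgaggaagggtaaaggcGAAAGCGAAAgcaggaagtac
PSME2: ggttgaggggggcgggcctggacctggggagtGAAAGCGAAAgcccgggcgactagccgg
The match began 21 bases before the start in PSMB10 and 28 bases before it in PSME2. A match of letters does not show that a factor binds there. The 13 genes with TGACNNNGC had a median log2FC of 0.041 between treatments and 0.038 between experiments, and the 27 tested genes without it had 0.030 and 0.084. For the interferon response element core the medians were 0.0086 and 0.038 with the letters (5 genes) and 0.035 and 0.071 without (35 genes). For the gamma-activated site they were -0.025 and 0.030 with (6 genes) and 0.037 and 0.075 without (34 genes), and for CCAAT 0.028 and 0.074 with (18 genes) and 0.037 and 0.063 without (22 genes).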

How the data were processed

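RNA of THP1 cells was hybridized to 4 single-dye Agilent arrays. The authors deposited 1 scanner file per array, whose processed intensities have the background removed but are not scaled between arrays, and a table of log2 values, quantile normalized over all features. The submitters' processing notes name Feature Extraction 10.5.1.1 and the file headers 10.7.3.1. Probe coordinates are those of the files (hg19). The members and gene lists were chosen with earlier results of these data known.

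With R 4.3.3 and limma 3.58.1, log2 processed intensities of 43118 non-control spots per array were quantile normalized, without the 232 to 301 spots per array marked as outliers, and averaged per probe. A probe counted as well above background if more than 50% of its copies did. Tested were 22638 of 34127 probes (66.3%), with a value on all 4 arrays and well above background on both arrays of a treatment. limma's lmFit and eBayes were fitted on all of them, with two-sided p-values, 4.14 total degrees of freedom between treatments and 3.95 between experiments. Fits were tested on simulated data. No sample lacked a group, and the precision is limited by the number of arrays.

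A gene was read by its probe with the highest mean signal. Values on every array were given for catalytic subunits, activators, the inhibitor, core assembly factors, genes with a probe past the unadjusted threshold, and the 3 highest and 3 lowest genes of each comparison. PSMC5, PSMD6, PSMD7, POMP and the genes of the other lists were named after their values were seen or for the number of their copies.

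The labels number the experiments, so the number pairs the arrays. Across probes, 0.271 was the correlation between the deviations of arrays of 1 experiment from their treatments' averages. Alternatives were 75th percentile scaling, normexp (offset 50), other filters, marked spots kept and the deposited table. Others were a replicate block, an intensity trend, a plain equal-variance t-test, the mean over the probes of a gene and each array left out. All arrays were on 1 slide, so slide was no block. Some genes of the lists are not reported here.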

Additional observations from a re-analysis of the deposited data

How the results depend on the processing

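Between treatments, the number of proteasome probes past the unadjusted threshold was 0, and it was 1 after normexp correction (PSME3) and 4 by the plain t-test. Between experiments it was 3, and it was 10 after normexp, 7 with an intensity trend, 8 by the t-test and 0 to 4 with 1 array left out. Over all tested probes the shares in either direction were 1.17% (normexp) and 3.13% (t-test) between treatments, and 13.6% (as reported), 14.02% (normexp), 14.6% (trend) and 11.3% (t-test) between experiments, against 5.08%, 16.9%, 11.9% and 13.6% of the proteasome probes. With the experiment number as a replicate block the counts were 0 between treatments and 3 between experiments, the same 3 probes, so the pairing changed no call. No setting had a proteasome probe past adjustment. Over all tested probes, 498 passed the unadjusted threshold between treatments, against 894 with the block, 265 after normexp, 285 with an intensity trend, 1029 without a filter on dim probes and 516 to 1379 with 1 array left out. Between experiments 3074 passed, and 1863 to 3221 with 1 array left out. The median log2FC of the immunoproteasome genes between treatments, 0.077, was 0.046 after 75th percentile scaling, 0.019 after normexp and -0.090 to 0.11 with 1 array left out, and that between experiments, 0.13, was 0.17, 0.089 and 0.12 to 0.14. For the other proteasome genes the ranges with 1 array left out were -0.0093 to 0.060 between treatments and 0.035 to 0.095 between experiments. Single genes kept their direction and side of the unadjusted threshold in 379 of 400 results under the alternatives run for single genes (all but the t-test, the mean over probes and left-out arrays), with 9 newly past it and 12 with the other sign. The other filters, the replicate block and the intensity trend leave each log2FC unchanged by design, so there only the side of the threshold could differ. All 12 results with the other sign came from normexp or 75th percentile scaling. The t-test passed 2 of the 3 probes called between experiments, without PSMD10. After normexp the difference of PSMB5 between experiments was -0.028, against -0.21. After normexp the values with the other sign were, between treatments, -0.030 for PSMB5, -0.10 for PSMD5, -0.041 for PSMG2 and -0.014 for the dim probe of PSMD9, and between experiments -0.013 for PSMB6, -0.025 for PSMB7, 0.082 for PSMD5, 0.079 for PSMG2 and -0.018 for PSMG3. After 75th percentile scaling they were -0.0022 for the dim probe of PSMD9 between treatments, and 0.013 for PSMD3 and 0.0031 for PSMF1 between experiments. With 1 array left out, 37 of 200 results had the other sign. In a fit with 1 array left out, the lone array of a group is assumed to vary as the other group does. The ranges of these results between treatments were -0.19 to 0.14 for the dim probe of PSMA1, -0.053 to 0.096 for PSMA1, -0.16 to 0.037 for PSMA7, -0.09 to 0.046 for PSMB10, -0.11 to 0.16 for PSMB5, -0.56 to 0.017 for PSMB8, -0.24 to 0.037 for the dim probe of PSMD10, -0.15 to 0.080 for PSMD10, -0.28 to 0.069 for PSMD3, -0.13 to 0.15 for PSMD5, -0.42 to 0.06 for PSMD8, -0.23 to 0.24 for the dim probe of PSMD9, -0.0064 to 0.089 for PSMD9, -0.19 to 0.50 for PSME1, -0.028 to 0.11 for PSMG1 and -0.021 to 0.0070 for PSMG3. Between experiments they were -0.17 to 0.011 for PSMA7, -0.026 to 0.11 for PSMB6, -0.041 to 0.071 for PSMB7, -0.050 to 0.13 for PSMB9, -0.23 to 0.21 for PSMD3, -0.047 to 0.082 for PSME2, -0.010 to 0.15 for PSME3, -0.13 to 0.010 for PSME4, -0.020 to 0.011 for PSMF1 and -0.047 to 0.0030 for PSMG2. The cause of these changes was not tested beyond the array left out or the setting itself.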
